A study of Mus musculus with 2 samples.

Results

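The 8 genes described here belong to the dystrophin complex of muscle and encode dystrophin (Dmd), its autosomal homologue utrophin (Utrn), dystroglycan (Dag1), α-, β- and δ-sarcoglycan (Sgca, Sgcb, Sgcd), sarcospan (Sspn) and α-dystrobrevin (Dtna). They were chosen by name, and every transcript model that the deposited count tables give under these names was taken: 88 of 97558 models in replicate 2 and 61 of 58867 in replicate 1, in 8 of the 15324 annotated mouse genes with a read. All 8 genes had at least 1 read in each library, and 7 of them reached the 10 summed reads needed for a test. The libraries are long-read RNA sequencing of a calf muscle, the gastrocnemius, of female B6CASTF1/J mice at 36 days, which are first-generation hybrids and carry no further allele or treatment in the labels. Each was made from 2 µg of RNA with added spike-in transcripts. The labels number the animals separately and name separate tissue samples under 1 donor entry. Both libraries belong to 1 group, so differences between them are differences between 2 libraries and not between conditions.

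The dystrophin-associated protein complex links the actin cytoskeleton of the muscle fibre to the basement membrane. Dystrophin binds actin inside the fibre and, near its C-terminus, the transmembrane β-dystroglycan, whose extracellular partner α-dystroglycan carries the sugar chains that laminin binds. The sarcoglycans and sarcospan form a membrane subcomplex beside dystroglycan, and α-dystrobrevin and the syntrophins form a cytoplasmic part that carries signalling proteins. Loss of dystrophin causes Duchenne muscular dystrophy, and loss of single sarcoglycans causes limb-girdle muscular dystrophies.

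Replicate 2 held 1602272 reads in annotated mouse genes and replicate 1 held 797105, so 1 read was worth 0.624 and 1.25 CPM (counts scaled to library size) in them, and a gene without a read can have had up to 1.87 and 3.76 CPM (3 counts). The reads bear the muscle label out: 8 fast-fibre markers summed to 200711 CPM in replicate 2 and 333454 CPM in replicate 1. Markers of slow fibres set the libraries apart, with a sum of 9415 CPM in replicate 2 and 28.9 CPM in replicate 1, where Myh7, Myl2, Myl3 and Myoz2 had no read. All 8 slow-fibre markers were higher in replicate 2 and 2 of the 8 fast-fibre markers were lower. In bulk tissue, fewer cells of a type and less RNA per cell cannot be told apart.

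The 8 genes summed to 309.6 CPM in replicate 2 (496 reads) and 360.1 CPM in replicate 1 (287 reads), a mean of 335 ± 35.7 CPM (SD, n = 2). Their levels ran from α-sarcoglycan to utrophin. Sgca averaged 120.8 ± 0.454 CPM, Sgcb 92.6 ± 3.87 CPM, Dag1 41.0 ± 23.6 CPM and Dtna 39.4 ± 4.56 CPM (SD, n = 2 each). Sspn averaged 15.0 ± 1.82 CPM, Sgcd 12.2 ± 0.486 CPM, Dmd 11.6 ± 3.14 CPM and Utrn 2.19 ± 1.32 CPM (SD, n = 2 each). The membrane subunits Sgca and Sgcb were each read more often than Dmd, which encodes the protein that anchors them, in both libraries.

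Neighbours in that order differed beyond the range of their libraries in 5 of 7 steps. Dag1 and Dtna overlapped, and so did Sgcd and Dmd. The range of 2 libraries leaves out counting error. Sspn lay above Sgcd by this rule on 22 against 19 reads in replicate 2 and 13 against 10 in replicate 1. The step from Sgca to Sgcb was 1.30-fold and that from Dtna to Sspn 2.62-fold. A long read counts 1 cDNA molecule whatever its length, and a long transcript is less often carried to its end. Division by length does not correct for this and lowers the values of long genes further. Levels per length are given only as a second scale. Divided by the length of the longest annotated transcript, the means were 70.0 CPM per kb for Sgca, 24.5 for Sgcb, 7.25 for Dag1, 6.26 for Dtna, 3.33 for Sspn, 2.74 for Sgcd, 0.777 for Dmd and 0.177 for Utrn. All 8 genes kept their place in the order on this scale, which depends on the length chosen. The longest transcript of Sgcd has 4453 nt, but its Known reads were of Sgcd-201, of 1617 nt. That of Dtna has 6295 nt, but its leading Known models were Dtna-206, of 4490 nt, and Dtna-201, of 1596 nt. Whether the order holds with the lengths of the models read was not tested.

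**Figure D1:**
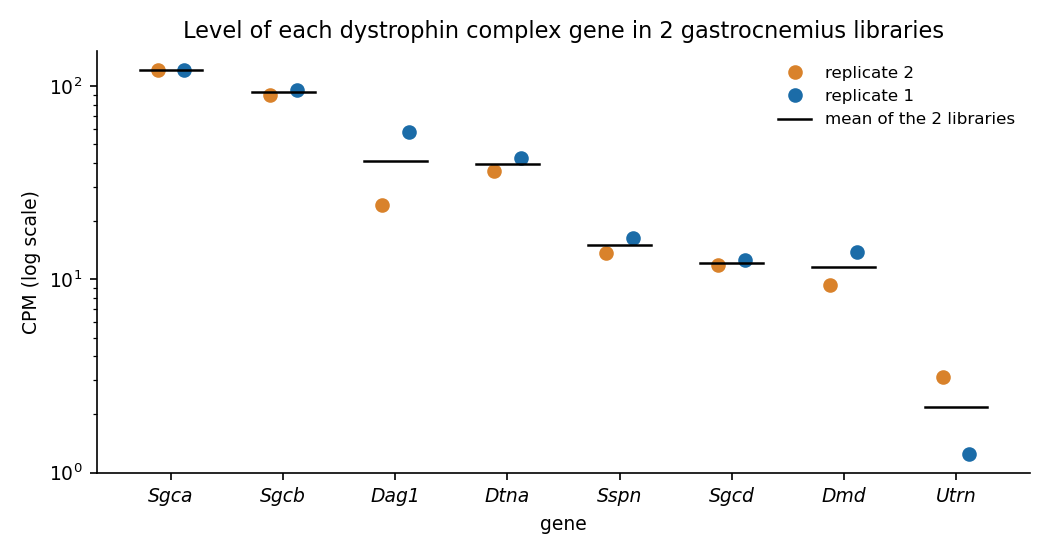
Level of each gene in CPM (log axis) in replicate 2 (left, orange) and replicate 1 (right, blue), with the mean of the libraries as a bar. Sgca sits near 121 CPM in both libraries, and Dag1, at 24.3 CPM in replicate 2 and 57.7 CPM in replicate 1, shows the widest gap of the 7 tested genes. The points of Utrn, which was not tested, lie further apart and rest on 6 reads.

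Of the 7 genes tested, 1 passed Fisher's exact test with Benjamini-Hochberg adjustment over 8096 genes and a 2-fold difference: Dag1 was lower in replicate 2. Over all genes tested, 11.3% passed in either direction and 5.47% were lower in replicate 2. The other 6 had CPM ratios of replicate 2 over replicate 1 between 0.678 (Dmd) and 1.01 (Sgca). The median log2 ratio of the 7 genes was -0.24, and that of all tested genes with reads in both libraries was 0.043. The interval of the ratio was narrow for Sgca, 0.783 to 1.30, and wide for Dmd, 0.291 to 1.63. The Dmd interval also holds a level 2-fold lower in replicate 2. A difference of 1.5-fold lies under the 2-fold threshold and could not be called at any depth.

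Dmd lies on the X chromosome (mm10 chrX:82948870-85206141, + strand), spans 2257 kb and has an annotated full-length transcript of 79 exons and 14910 nt. The muscle promoter of Dmd lies just upstream of that transcript, and a separate promoter far downstream starts the short form Dp71, which lacks the actin-binding end. The muscle promoter is shown because reads on the opposite strand, described at the end, gathered next to it. Its 250 bases before the RefSeq start (GRCm38.p6, chrX:82948620-82948869, + strand) hold 2 E-boxes (CANNTG, the core that MyoD-family factors bind) and 1 CArG box (the core that serum response factor binds), in capitals:
Dmd muscle promoter: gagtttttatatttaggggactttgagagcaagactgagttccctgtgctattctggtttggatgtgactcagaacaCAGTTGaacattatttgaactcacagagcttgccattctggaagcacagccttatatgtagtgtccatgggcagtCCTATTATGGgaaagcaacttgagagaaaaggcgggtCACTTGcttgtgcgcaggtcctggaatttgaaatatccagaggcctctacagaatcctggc
Of 32851 RefSeq windows of the same length, 66.2% hold an E-box and 1.47% a CArG box. Of the 10 windows read for 7 of the 8 genes, this is the one with a CArG box.

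Dmd had 15 reads in replicate 2 (9.36 CPM) and 11 in replicate 1 (13.8 CPM). No read held the whole chain of introns of an annotated protein-coding transcript, and no read was in a Known model, which matches an annotated transcript (0 of 15 and 0 of 11 reads, exact 95% limits up to 21.8% and 28.5%). The reach along the transcript differed between the libraries. In replicate 2, 13 of 15 reads were single-exon Genomic reads, a class that overlaps the gene without its splicing, and 4 of these lay in exon 79, the last exon. In replicate 1, 9 of 11 reads were spliced. The longest of them covered exons 3 to 38 in 5361 nt, 36.0% of the full-length transcript, and another covered exons 59 to 79 in 4947 nt.

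Spliced reads touched 13 of the 79 exons in replicate 2 and 57 in replicate 1, and 22 exons had none in either library. They were densest at the 3′ end, where 1 spliced read of replicate 2 and 6 of replicate 1 reached exon 79. Of these, 1 in replicate 1, the read from exon 59, began upstream of the first exon of Dp71, and the others began downstream of it and can come from any Dmd promoter. No read held the Dp71 first exon itself. Spliced reads that begin upstream of it, wherever they end, were 1 of 2 in replicate 2 and 4 of 9 in replicate 1.

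**Figure D2:**
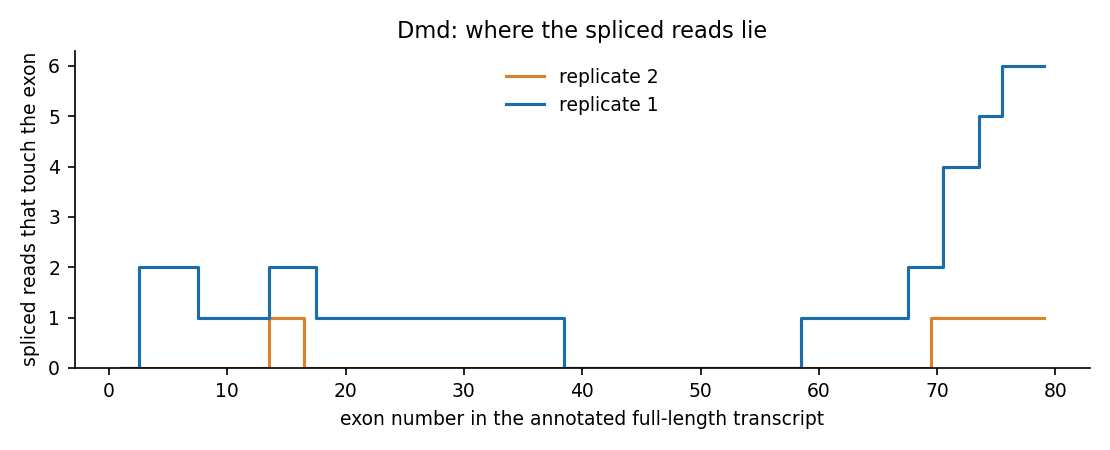
Number of spliced reads (y axis) that touch each of the 79 exons of the annotated full-length Dmd transcript (x axis) in replicate 2 (orange) and replicate 1 (blue). Reads gather at the last exons, up to 6 in replicate 1, and no spliced read covers exons 39 to 58.

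Exons 71 and 78 of Dmd are spliced differently between tissues and stages: both are left out of many Dp71 transcripts, and leaving out exon 78 shifts the reading frame and gives another C-terminus. Both are shown with 12 bases of the neighbouring exons on either side, from the GENCODE M21 transcript, with the exon in capitals:
Dmd exon 71: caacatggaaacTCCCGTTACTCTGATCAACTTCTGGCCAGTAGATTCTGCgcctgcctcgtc
Dmd exon 78: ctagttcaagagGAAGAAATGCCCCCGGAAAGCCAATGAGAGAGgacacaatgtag
Exon 71 (mm10 chrX:85144911-85144949) has 39 nt, a multiple of 3, and exon 78 (chrX:85197504-85197535) has 32 nt, which is not. Every read that crossed them held them: exon 71 in 1 of 1 read of replicate 2 and 2 of 2 of replicate 1, and exon 78 in 1 of 1 and 6 of 6. At this depth the lower exact 95% limit for exon 78 in replicate 1 is 54.1%, so a skipped minority was not detectable.

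Utrn (mm10 chr10:12382188-12869365, - strand), whose protein binds the same partners as dystrophin and in mature fibres is concentrated at the neuromuscular junction, had 5 reads in replicate 2 (3.12 CPM) and 1 in replicate 1 (1.25 CPM), too few for a test. The read of replicate 1 ran through exons 46 to 74 of the 74-exon transcript to the 3′ end. A read of replicate 2 held 35 exons from the upstream first exon of the annotated transcript Utrn-205 on, through the first 34 exons of the 74-exon transcript. The other 4 were single-exon reads. In neither gene did a read join the 5′ and 3′ ends.

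Dag1 (mm10 chr9:108204634-108263958, - strand) encodes both dystroglycan subunits as 1 precursor, from 2 coding exons. It had 39 reads in replicate 2 (24.3 CPM) and 46 in replicate 1 (57.7 CPM), which makes it 2.37-fold lower in replicate 2 (exact 95% interval of the fold 1.51 to 3.73, Fisher's exact test, adjusted p = 0.00079). The kind of read differed as well. Spliced models held 2 of 39 reads in replicate 2 (5.13%, exact 95% interval 0.627% to 17.3%) and 16 of 46 in replicate 1 (34.8%, 21.4% to 50.2%), and these intervals do not overlap. The others, 37 in replicate 2 and 30 in replicate 1, were single-exon reads in the last exon of 5028 nt, which holds most of the coding sequence and the 3′ UTR.

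Joined coding exons were found in 1 read of replicate 2 and 16 reads of replicate 1. Counted in Known models alone, Dag1 had 1 read in replicate 2 and 13 in replicate 1, a log2 ratio of -4.73 (Fisher's exact test, adjusted p = 6.4e-05). Over the 7 alternatives its adjusted p ran up to 0.032, with replicate 2 thinned to the depth of replicate 1. Single-exon reads were also more frequent in replicate 2 over the annotated genes outside the complex, at 16.2% of reads there and 9.17% in replicate 1. Schwann cells also make dystroglycan, and the 8 Schwann and nerve markers summed to 158.5 CPM in replicate 2 and 368.8 CPM in replicate 1. Of the 4 tested, Mbp and Prx were lower in replicate 2, and Mag and Sox10 had no read there. The 8 fibroblast markers summed to 1173 CPM in replicate 2 and 2594 CPM in replicate 1, with Gsn and Col3a1 of 8 tested lower. Gsn makes up most of that difference: without it, the other 7 had 642 CPM in replicate 2, against 971 CPM in replicate 1. How far the amount of these cells bears on the level of Dag1 was not tested.

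Sgca encodes α-sarcoglycan, the subunit whose loss is a frequent cause of limb-girdle dystrophy, and is a small gene (mm10 chr11:94962791-94976327, - strand) with the shortest transcripts of the set, up to 1724 nt. It has a pair of annotated first exons, which lie 2651 nt apart, and the start codon is in the exon they share. The RefSeq start, and so the promoter window, belongs to the upstream first exon. Its 250 bases (GRCm38.p6, chr11:94976328-94976577, - strand) are shown because few Sgca reads begin there, with the 1 E-box in capitals:
Sgca upstream promoter: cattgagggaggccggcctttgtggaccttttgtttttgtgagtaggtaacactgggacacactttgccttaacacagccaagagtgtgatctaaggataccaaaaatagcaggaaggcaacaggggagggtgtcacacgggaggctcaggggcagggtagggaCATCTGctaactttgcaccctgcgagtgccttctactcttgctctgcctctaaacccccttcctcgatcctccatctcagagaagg
The window holds no CArG box. The second sequence is exon 9 of the longer transcript (mm10 chr11:94969059-94969085), a coding exon of 27 nt in capitals, with 12 bases of its neighbours:
Sgca exon 9: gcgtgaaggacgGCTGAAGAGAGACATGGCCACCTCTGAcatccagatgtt

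Sgca had 194 reads in replicate 2 (121.1 CPM) and 96 in replicate 1 (120.4 CPM), a CPM ratio of 1.01 with an exact 95% interval of 0.783 to 1.30. The upstream first exon began 27 of 194 reads in replicate 2 (13.9%, exact 95% interval 9.38% to 19.6%) and 11 of 96 in replicate 1 (11.5%, 5.86% to 19.6%). The downstream first exon, whose start lies inside exon 2 of the longer form, began 149 reads in replicate 2 (76.8%) and 76 in replicate 1 (79.2%). A read of the longer form that breaks off inside exon 2 has the same introns as the shorter form, and these cannot be told apart. Exon 9, despite its 27 nt, was held in all 185 reads of replicate 2 and all 89 of replicate 1 that cross it, and none skipped it.

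The variation at the 3′ end of Sgca lay behind the stop codon. Of the reads that cross the last intron, 150 of 185 in replicate 2 (81.1%) and 81 of 93 in replicate 1 (87.1%) used the upstream acceptor. The downstream acceptor, which shortens the last exon by 114 nt, took 26 of 185 (14.1%, 9.39% to 19.9%) and 8 of 93 (8.60%, 3.79% to 16.2%). The last intron, of 121 nt, was retained in 9 and 4 reads (4.86% and 4.30%). The intervals of the libraries overlap for each of these choices. The whole intron chain of a protein-coding transcript was present in 178 of 194 reads in replicate 2 (91.8%) and 87 of 96 in replicate 1 (90.6%), the highest share of the 8 genes.

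**Figure D3:**
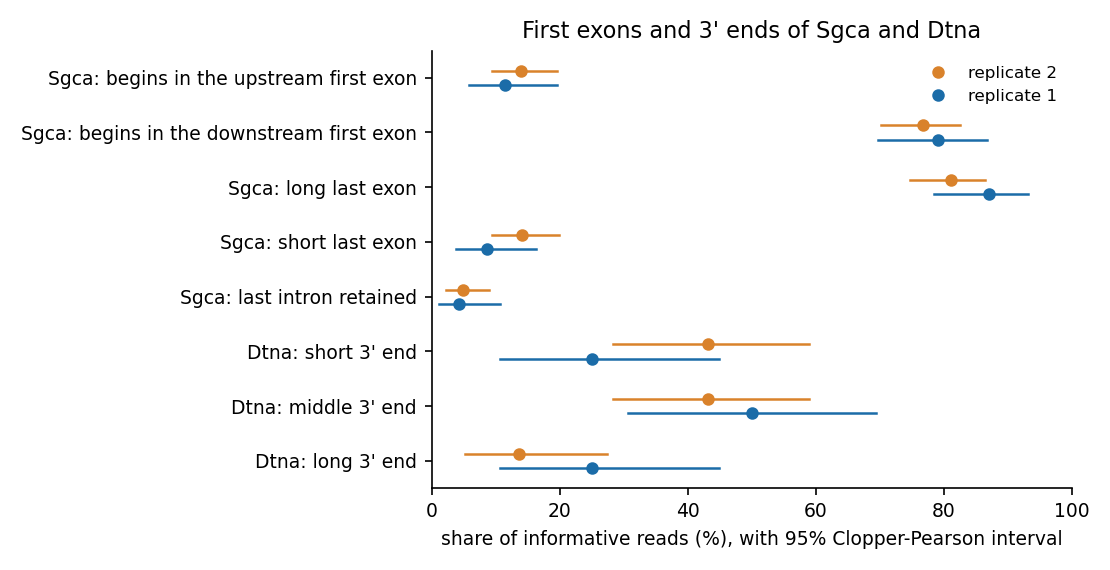
Share of informative reads (x axis, %) by first exon and 3′ end of Sgca, and by the range in which Dtna models end (short, middle or long). Replicate 2 is orange and replicate 1 blue, with exact 95% intervals as lines. The downstream first exon of Sgca takes 76.8% in replicate 2 and 79.2% in replicate 1, and the 3 ranges of Dtna have wide, overlapping intervals.

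Sgcb (mm10 chr5:73632749-73647790, - strand), β-sarcoglycan, the core subunit on which the others assemble, had 144 reads in replicate 2 (89.9 CPM) and 76 in replicate 1 (95.3 CPM). A single annotated transcript of 6 exons, Sgcb-201, took 98 reads in replicate 2 (68.1%) and 53 in replicate 1 (69.7%). Exon 1 began 104 of 111 spliced reads in replicate 2 and 57 of 63 in replicate 1. The intron of 274 nt between exons 4 and 5 was retained in 4 of 111 crossing reads in replicate 2 (3.6%) and 2 of 62 in replicate 1 (3.23%). The annotated 3′ end closed the models of 116 of 144 reads in replicate 2 (80.6%, exact 95% interval 73.1% to 86.7%) and 75 of 76 in replicate 1 (98.7%, 92.9% to 99.97%), and these intervals do not overlap. Single-exon reads enter this count by the ends of their models. In replicate 1, a single model of 13 reads spans 73632749 to 73635698 and so has the annotated end. In replicate 2, 3 models of 12, 14 and 7 reads lie within the same span, and only that of 12 reads has this end. That model is 1 nt long, so the ends of models are not always the ends of reads. How far this division of models sets the difference was not tested.

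Sgcd (mm10 chr11:46896253-47988969, - strand), δ-sarcoglycan, which pairs with β-sarcoglycan, had 19 reads in replicate 2 (11.9 CPM) and 10 in replicate 1 (12.5 CPM). The 8-exon transcript Sgcd-201 took 5 and 4 of them. All spliced reads, 8 in replicate 2 and 7 in replicate 1, began in its first exon, and 3 in each library ended before its last exon. A further 10 reads of replicate 2 and 3 of replicate 1 were single-exon reads in the region behind that last exon and before the far last exon of Sgcd-202, at least 2053 nt past the annotated end. These 13 reads are 44.8% of the 29 reads of the gene, and whether they belong to it was not tested.

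Sspn (mm10 chr6:145931641-145965223, + strand), sarcospan, a small protein with 4 membrane spans related to the tetraspanins, had 22 reads in replicate 2 (13.7 CPM) and 13 in replicate 1 (16.3 CPM). The 3-exon transcript Sspn-201 took 6 and 5 of them. Single-exon reads inside its last exon of 4094 nt took 15 of 22 reads in replicate 2 (68.2%) and 5 of 13 in replicate 1 (38.5%). A short intron inside that last exon, behind the stop codon, was placed in 1 read of replicate 2 and 3 reads of replicate 1. These introns are 69 to 73 nt long, none is annotated, and each read has its own pair of ends within the same stretch of 107 nt. Their first and last bases are GT and AG in the 3 reads of replicate 1 and GC and AG in the read of replicate 2.

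Dtna (mm10 chr18:23415135-23659715, + strand), α-dystrobrevin, shares sequence with the C-terminal part of dystrophin and binds both dystrophin and syntrophin. It had 58 reads in replicate 2 (36.2 CPM) and 34 in replicate 1 (42.7 CPM), in 24 and 17 models. Its proteins differ by where the transcript ends. The short form ends after 12 exons and codes for 371 amino acids, the middle form for 567, and the long form, with the tyrosine-rich tail, for 746. Spliced reads were sorted only by the position where their model ends, into 3 ranges. The short range runs up to the end of Dtna-201, the middle range from there to the end of Dtna-206, and the long range past it. A read that breaks off inside the gene is counted in the same way. The short range took 19 of 44 spliced reads in replicate 2 (43.2%, exact 95% interval 28.3% to 59.0%) and 7 of 28 in replicate 1 (25.0%, 10.7% to 44.9%). The middle range took 19 of 44 (43.2%) and 14 of 28 (50%), and the long range 6 of 44 (13.6%, 5.17% to 27.4%) and 7 of 28 (25.0%, 10.7% to 44.9%). Models thus ended in all 3 ranges in both libraries, and the intervals of the libraries overlap for each. The 2 Known models in each library were Dtna-201, the short form (13 reads in replicate 2, 5 in replicate 1), and Dtna-206, the middle form (13 and 8). No Known read was of the long form, and whether reads of the long range use its annotated end was not tested.

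Between the short and the middle end, the gene has alternative cassette exons. An exon of 78 nt (chr18:23610464-23610541) was held in 23 of 24 reads in replicate 2 (95.8%) and 17 of 21 in replicate 1 (81.0%). The next, of 93 nt (chr18:23611064-23611156), was held in 23 of 24 (95.8%) and 16 of 21 (76.2%). A further one, of 49 nt (chr18:23653329-23653377) near the long end, was held in 6 of 6 and 6 of 7 reads. At least 20 reads in each library crossed 16 internal exons of Dtna, 8 of Sgca and 5 of Sgcb. Of these, the 6 held in 1% to 99% of reads over both libraries were tested, all of them in Dtna, and none passed Fisher's exact test with Benjamini-Hochberg adjustment and a difference of 10 percentage points. The lowest unadjusted p was 0.083, that of the 93-nt exon, and none was under 0.05. Over the 2882 exons tested in all genes, 0.59% passed. With skipping counted only between an exon's own neighbours, inclusion of the 93-nt exon averaged 97.1%, in place of 86.0%.

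By the share with the whole intron chain, reads were most complete in Sgca, whose longest transcript is the shortest of the 8. They were least complete in Dmd and Utrn, whose transcripts are the longest. In Sgca, a read of the longer form that breaks off inside exon 2 holds the chain of the shorter form and counts as whole. Known models took 275 of the 496 reads in replicate 2 (55.4%, exact 95% interval 50.9% to 59.9%) and 166 of 287 in replicate 1 (57.8%, 51.9% to 63.6%), against 67.6% and 66.6% of reads in the annotated genes outside the complex. The whole intron chain of a protein-coding transcript was present in 315 of 496 reads (63.5%) and 181 of 287 (63.1%). Per gene, that share in replicate 2 and in replicate 1 was 91.8% and 90.6% for Sgca, 68.1% and 69.7% for Sgcb, 46.6% and 47.1% for Dtna, and 0 for Dmd and Utrn. It was 26.3% and 40% for Sgcd, 27.3% and 61.5% for Sspn, and 2.56% and 28.3% for Dag1, below that of Dtna. The longest transcript is 5662 nt in Dag1 and 6295 nt in Dtna, but the share counts any protein-coding transcript. The leading Known models of Dtna were Dtna-206, of 4490 nt, and Dtna-201, of 1596 nt, both shorter than 5662 nt. How far the shares follow length was not tested. Incomplete splice match (ISM) models hold a consecutive stretch of an annotated intron chain, NIC models combine annotated splice sites in an unlisted way, and NNC models have a splice site that the annotation lacks. Genomic reads took 25.8% of the complex's reads in replicate 2 and 17.1% in replicate 1, against 8.0% and 4.62% outside it. This class was not given alike in the libraries. Single-exon reads of Sgcb were Genomic in replicate 2 (33 reads) and ISM in replicate 1 (13 reads). Those of Sgca were ISM in replicate 2 (4 reads) and Genomic in replicate 1 (3 reads). Single-exon reads of any class took 26.4% of the complex's reads in replicate 2 and 21.6% in replicate 1.

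**Figure D4:**
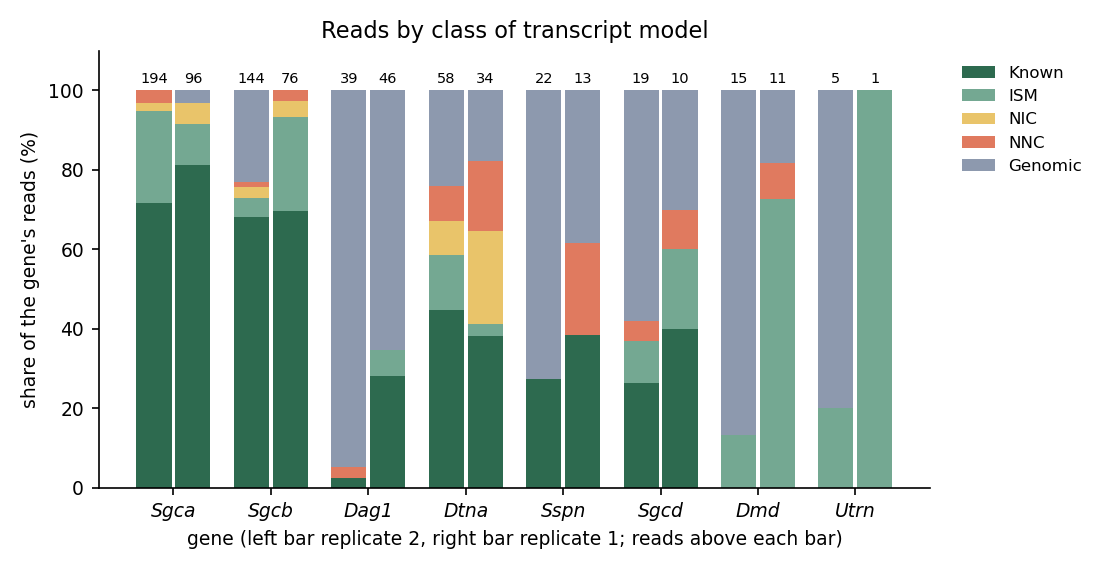
Share of each gene's reads (y axis, %) by class of transcript model, in replicate 2 (left bar) and replicate 1 (right bar), with the number of reads above each bar. Known models fill most of Sgca and Sgcb and are absent from Dmd and Utrn, and Genomic models take 94.9% of Dag1 in replicate 2 and 65.2% in replicate 1.

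The partners of the complex were described from 5 lists with 47 genes, of which 45 had a read and 34 were tested. Of these, 1 was higher and 3 were lower in replicate 2, a share close to the 11.3% of all tested genes that passed. Sgce, ε-sarcoglycan, which is also made outside muscle, had 4.99 CPM in replicate 2 and 6.27 CPM in replicate 1 (8 and 5 reads) and did not pass. Dtnb, β-dystrobrevin, had 3 reads in replicate 2 and 1 read in replicate 1, and Sgcz had a read in each, both below the number needed for a test.

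The syntrophins and cytoplasmic partners had 10 of 13 genes tested and none past both thresholds. Mlf1 had 557 CPM in replicate 2 and 411 CPM in replicate 1, and Plec, the linker plectin, had 152.3 and 164.3 CPM. Sntg1 and Sntg2, the γ-syntrophins known from nervous tissue, had no read. Of the enzymes that build the laminin-binding sugar of α-dystroglycan, 11 of 17 were tested and none passed both thresholds. Rxylt1, which adds xylose to the ribitol of that chain, had 108.0 CPM in replicate 2 and 65.2 CPM in replicate 1, Pomgnt1 67.4 and 101.6 CPM, and Dpm1 66.8 and 59.0 CPM.

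The 4 partners that passed were matrix ligands and genes of the other laminin receptor, and whether these lists differ from other genes was not tested. Of 8 of 10 matrix ligands tested, Lamb2, the laminin β2 chain of the junctional basement membrane, was lower in replicate 2, with 27.5 CPM against 89.1 CPM in replicate 1 (3.24-fold, adjusted p = 1.0e-08 by Fisher's exact test). Lamc1, the laminin γ1 chain, had 29 reads in each library, 18.1 CPM in replicate 2 and 36.4 CPM in replicate 1, and passed at the threshold (2.01-fold lower, adjusted p = 0.042 by Fisher's exact test). It no longer passed with TMM scaling (1.94-fold, adjusted p = 0.057), with DESeq2 size factors (adjusted p = 0.054), with every gene tested (adjusted p = 0.077) or with replicate 2 thinned (1.71-fold, adjusted p = 0.30), alternatives added for the partners after the data were seen. Lamc1 still passed Fisher's exact test with Atp2a1 left out of the total (2.19-fold, adjusted p = 0.025). It also passed without ISM and Genomic models (4.91-fold, adjusted p = 0.0010) and on Known models alone (7.75-fold, adjusted p = 5.5e-05). The Known models held 5 reads in replicate 2 and 19 in replicate 1. Bgn, biglycan, had 21.2 and 17.6 CPM. Of the 3 genes of the integrin receptor, Itga7, the α7 chain of the muscle laminin receptor, was 2.40-fold lower in replicate 2, with 16.2 CPM against 38.9 CPM (adjusted p = 0.0081). Itgb1bp2, melusin, a muscle protein that binds integrin β1, was 2.14-fold higher, with 121.1 CPM in replicate 2 and 56.5 CPM in replicate 1 (adjusted p = 1.4e-05). Lamb2 passed under all 7 alternatives. Itga7 did not pass with replicate 2 thinned (adjusted p = 0.11 by Fisher's exact test) and had too few reads for a test in Known models. Itgb1bp2 fell short of 2-fold with Atp2a1 left out of the total (1.97-fold) and on Known models alone (1.76-fold). Itgb1 had 56.2 and 86.6 CPM and did not reach 2-fold. Lamb2, Lamc1 and Itga7 are also made by Schwann, vessel or connective tissue cells. The Schwann and fibroblast markers were given with Dag1. The 8 endothelial markers summed to 144.2 CPM in replicate 2 and 128.0 CPM in replicate 1, with none of 6 tested past the thresholds. The 8 pericyte and smooth muscle markers summed to 150.4 and 184.4 CPM, with Myh11 of 6 tested lower. Markers of the neuromuscular junction summed to 102.4 and 151.8 CPM, with Ache of 6 tested lower, and the 6 satellite cell markers to 20.6 and 27.6 CPM, with none called of 1 tested. The part of these cells in the laminin and integrin values was not tested.

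**Figure D5:**
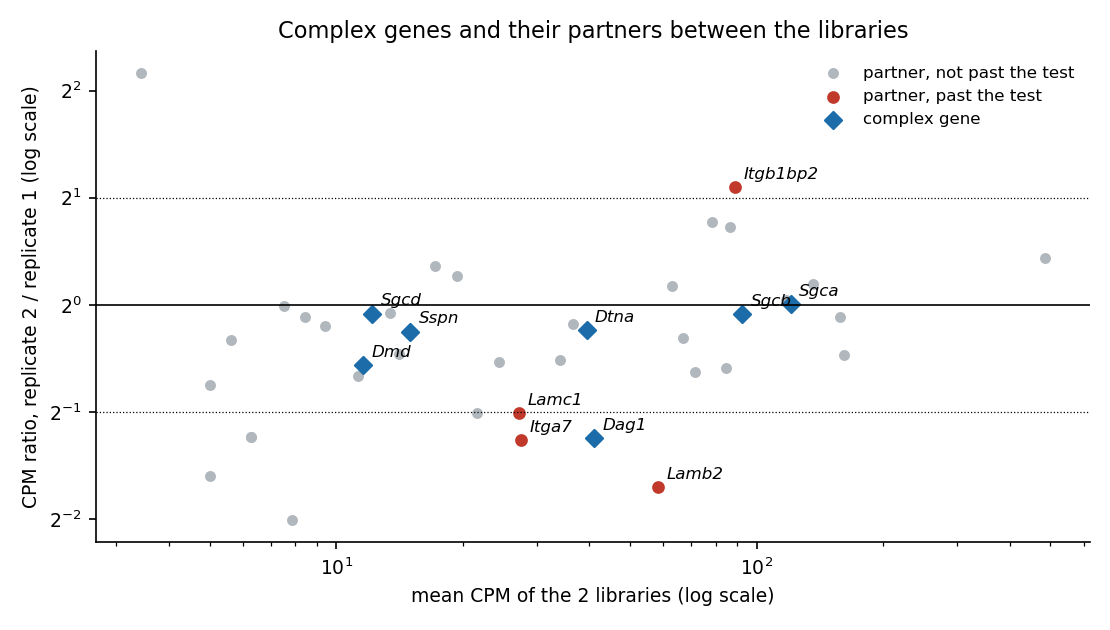
CPM ratio of replicate 2 over replicate 1 (y axis, log scale) against the mean CPM (x axis, log scale) for the 7 tested genes of the complex (blue diamonds) and their 34 tested partners (grey, red where past the test). Dotted lines mark 2-fold. Dag1, Lamb2, Lamc1 and Itga7 lie below the lower line or on it, Itgb1bp2 lies above the upper one, and Sgca, Sgcb and Sgcd lie near 1.

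Reads on the strand opposite to Dmd outnumbered those of Dmd itself. In models that the deposited tables class as antisense loci within its bounds, replicate 2 had 269 reads in 80 models and replicate 1 had 61 reads in 18 models, against 15 and 11 reads of Dmd. They gathered at the 5′ end: the 13.1 kb that begin 33 nt past the start of the full-length transcript (mm10 chrX:82948903-82962012), 0.581% of the gene, held 141 of the 269 reads in replicate 2 (52.4%) and 44 of 61 in replicate 1 (72.1%). That window, whose end was set after the values were seen, covers exon 1 and the first part of intron 1, which is 187480 nt long. Positions recurred: 87 reads of replicate 2 were placed at 82948903 to 82952862 and 31 of replicate 1 at 82950536 to 82952862, and 40 and 8 reads lay in stretches ending at 82962012.

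Nearly all of these reads were unspliced, with 1 spliced read in replicate 2 and 3 in replicate 1. Of the 3, 2 use an annotated intron of Dmd, which is on the + strand, while the deposited table places them on the - strand. How the strand of a read was set is not given in the sources used here, so reads of the opposite strand and reads of Dmd with a turned strand cannot be told apart. The other members had fewer such reads: 36 and 7 at Dtna, 25 and 2 at Dag1, 18 and 2 at Sgcd, 10 and 3 at Sgca and 7 and 4 at Utrn in replicate 2 and replicate 1, and none at Sgcb and Sspn. Those at Utrn also outnumbered its own reads, 5 in replicate 2 and 1 in replicate 1. Per kb of gene, Dmd had 0.119 such reads in replicate 2 and 0.0270 in replicate 1, less than Sgca with 0.739 and 0.222. In the whole tables, antisense loci took 5.38% of reads in replicate 2 and 2.44% in replicate 1.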

How the data were processed

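Long-read RNA sequencing of the gastrocnemius was available as 2 libraries of 1 group. The authors deposited, for each library, whole-number read counts per transcript model with TALON's classes, and a transcript annotation with the exons of each model. They come from filtered alignments to mm10 with GENCODE M21, per the README of each library. Aligner, filters and versions are not stated there. Only models with at least 1 read are listed, and since some are as short as 1 nt, model ends are not read ends.

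Reads were summed per gene and scaled to CPM by each library's total over annotated mouse genes (1602272 in replicate 2, 797105 in replicate 1). Genes with at least 10 summed reads were compared by a two-sided Fisher's exact test with p adjusted after Benjamini-Hochberg over 8096 genes, and called at an adjusted p under 0.05 and 2-fold. With 1 group no count model with a spread between replicates can be fitted, so the test compares libraries. Internal exons were tested alike, on reads that hold or skip them, at 20 reads in each library, for an inclusion of 1% to 99% and a difference of 10 points. Intervals are exact 95% intervals and hold for counting error alone, because no molecular identifiers tell reads of 1 molecule apart. Fold intervals come from the exact binomial interval of both libraries' reads. Medians of ratios use no pseudocount. Scalings came from edgeR 4.0.16 and DESeq2 1.42.0 (R 4.3.3), and the rest from scipy 1.17.1 in Python 3.11.15. The tests were tested on simulated data. The text names all 8 genes, their leading models, every internal exon of 5% to 95% inclusion with 10 reads, and of each partner list the 3 genes with most reads and every gene called, except items that are not reported here. Members and lists were chosen with earlier results of these data known. Exon and promoter sequences come from GENCODE M21 and RefSeq (GRCm38.p6), of which 10 windows of 7 genes were used.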

Additional observations from a re-analysis of the deposited data

Results flagged for a closer look

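Reads in antisense loci were outside the gene counts and were set against the 3 counts that a count of 0 allows. At Dmd there were 269 in replicate 2 and 61 in replicate 1, more than the gene's own reads in either library. At Utrn there were 7 and 4, also more than its own 5 and 1 reads. At Dtna there were 36 and 7, at Dag1 25 in replicate 2, at Sgcd 18 in replicate 2 and at Sgca 10 in replicate 2. Per kb of gene the Dmd value was 0.119 in replicate 2 and 0.0270 in replicate 1. What gave rise to these reads was not tested.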

How the results depend on the processing

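No paired analysis was possible because both libraries belong to 1 group. Dag1 was the 1 complex gene called under all 7 alternatives, with log2 ratios of replicate 2 over replicate 1 from -4.73 (Known models alone) to -1.06 (replicate 2 thinned to the depth of replicate 1). Of 52 alternative log2 ratios of the 8 genes, 4 changed sign. All 4 were of Sgca, which was near 0: -0.12 without Atp2a1 in the total, -0.19 on Known models alone, -0.011 without incomplete splice match and Genomic models, and -0.093 thinned. None of them was called. The summed level of 335 CPM moved to 189.9 CPM on Known models alone and 217 CPM without incomplete splice match and Genomic models, since these settings count fewer reads of the same libraries, and it was 309.6 to 360.1 CPM with a single library. The share of reads in Known models, 56.6% on average, was 72.2% with Genomic models left out of the denominator and 55.4% to 57.8% with a single library. The share with a whole intron chain, 63.3% on average, was 83.4% of spliced reads and 63.1% to 63.5% with a single library. No complex exon was called under any exon setting. At a minimum of 50 reads none could be tested. Dag1 and Dtna changed places in the order of levels on Known models alone and without incomplete splice match and Genomic models. Depth limits Dmd, Utrn, Sgcd and Sspn most, with 6 to 35 reads over both libraries.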
